A study of Mus musculus with 6 samples.

Results

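The actin and myosin machinery that macrophages use to engulf particles was examined through 48 genes, taken by gene symbol from the 54232 rows of the deposited expression table. Each of the 48 symbols had a row, and all 48 were among the 13527 genes with enough reads to be tested. They cover 11 roles: actin and its monomer binders, the Arp2/3 complex, WASP with its partner and a cortactin relative, the WAVE complex, formins, Ena/VASP proteins, severing and capping proteins with coronins, small GTPases with an exchange factor, kinases and a scaffold, myosins, crosslinkers, and linkers to the membrane. The series compared 3 RNA libraries of SIRPa knockout (KO) macrophages with 3 libraries of wild-type (WT) macrophages. Both groups were of strain C57BL/6 and 8 weeks of age, and both were grown from bone marrow for 7 days with 30% L929 cell-conditioned medium, a source of colony-stimulating factor 1, and left untreated. No particle or target cell was added, so the values describe resting cells. The sources used here do not give how the knockout was made, nor whether libraries came from single mice, pooled mice or parallel cultures. The p-values below therefore speak of the scatter among libraries, which may be technical. In such bulk RNA, fewer cells of a type and less RNA per cell cannot be told apart.

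Phagocytosis turns a patch of cell cortex into a cup that closes around a particle. Small GTPases switch on WASP and WAVE, which make the Arp2/3 complex build branched filaments, while formins and Ena/VASP proteins lengthen straight ones. Cofilin and gelsolin take filaments apart, crosslinkers bind them to each other and to the membrane, and myosins pull on them. SIRPa on the macrophage binds CD47 on the target and recruits the SHP phosphatases, and its signals are known to restrain myosin IIA, whose heavy chain is encoded by Myh9, at the contact.

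Transcription of many actin genes is known to be driven by serum response factor, which binds the CArG box. RefSeq promoter windows on build GRCm38.p6 matched 41 of the 48 genes, with 54 windows in all, and the 250 bases before each annotated start were searched on both strands. The CArG box was found in 3 of the 54 windows (5.56%), against 482 of 32851 windows of all genes (1.47%). The windows of Actg1, Arpc4 and Myo1e held it, and they are shown with that of Myh9, the gene to which the series' question points. In Arpc4 (chr6:113377863-113378112, plus strand), Myo1e (chr9:70207100-70207349, plus strand) and Actg1 (chr11:120348496-120348745, minus strand) the capitals mark the CArG box, which begins 250 bases before the start in Arpc4, 32 in Myo1e and 90 in Actg1. In Myh9 (chr15:77842176-77842425, minus strand) they mark its 4 GC boxes, the GGGCGG motif read on either strand.
Arpc4: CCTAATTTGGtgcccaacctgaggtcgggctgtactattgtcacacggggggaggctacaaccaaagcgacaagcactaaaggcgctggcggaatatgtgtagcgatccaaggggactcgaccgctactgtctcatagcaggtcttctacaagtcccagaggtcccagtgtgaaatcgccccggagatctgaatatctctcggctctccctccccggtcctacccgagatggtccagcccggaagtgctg
Myo1e: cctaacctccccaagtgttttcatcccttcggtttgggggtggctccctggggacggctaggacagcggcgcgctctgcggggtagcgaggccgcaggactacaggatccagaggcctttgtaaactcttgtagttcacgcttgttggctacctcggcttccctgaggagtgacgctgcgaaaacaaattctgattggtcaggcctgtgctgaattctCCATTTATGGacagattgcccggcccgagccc
Actg1: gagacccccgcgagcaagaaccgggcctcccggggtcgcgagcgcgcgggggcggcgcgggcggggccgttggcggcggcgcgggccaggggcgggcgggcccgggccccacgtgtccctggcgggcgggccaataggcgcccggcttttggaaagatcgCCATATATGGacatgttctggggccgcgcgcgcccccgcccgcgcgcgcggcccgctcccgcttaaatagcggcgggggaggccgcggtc
Myh9: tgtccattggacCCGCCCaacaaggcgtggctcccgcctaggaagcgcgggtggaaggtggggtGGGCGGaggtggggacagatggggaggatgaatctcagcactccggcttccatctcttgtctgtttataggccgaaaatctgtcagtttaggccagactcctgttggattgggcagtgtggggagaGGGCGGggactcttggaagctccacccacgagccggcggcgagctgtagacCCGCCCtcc
GC boxes stood in 35 of the 54 windows (64.8%), against 32.7% of all windows. The letters TATAAA, on either strand, were in the windows of Cdc42, Hcls1 and Myh9 (5.56% of the 54), against 12.4% of all windows. The 3 motifs were counted separately, so a base may count for several of them. A match describes letters in this window and says nothing of binding.

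The libraries matched their labels and were macrophage RNA. Sirpa, the targeted gene, had normalized counts of 2102, 2112 and 2010.4 in KO libraries, against 110498, 114095 and 94737 in WT libraries, and was the 1 gene of 13527 that passed the test (log2 fold change -5.68). A normalized count is the number of reads of a gene divided by a size factor of the library. Assigned reads numbered 28653015 to 31401080 in KO libraries, and 34102444, 37307975 and 67446846 in WT libraries 1, 2 and 3. WT replicate 3 thus had the most reads of the 6 libraries. All 12 macrophage markers tested were detected, among them Csf1r at 88025 to 114303 in KO libraries and 85160 to 112206 in WT libraries, and 0 of them passed the test. Of the 12, 1 had groups without overlap and an unadjusted limma p under 0.05, against 4.66% and 1.52% of all tested genes for each. This marker was Cd14, at 11582.5, 14395 and 10799 in KO libraries against 14862, 15142 and 15520 in WT libraries (log2 fold change -0.32). The 8 fibroblast markers summed to 14.5 to 21.8 normalized counts in KO libraries and 16.1 to 21.7 in WT libraries. The 14 muscle markers, whose actins and myosins resemble the genes studied, summed to 35.0 to 43.5 in KO libraries and 34.8 to 49.97 in WT libraries, with 7 of them at 0 in every library. Neutrophil markers summed to 422 to 591 in KO libraries and 358 to 731 in WT libraries, and dendritic cell markers to 2788 to 3890 in KO libraries and 2013 to 5253 in WT libraries. T and NK cell markers summed to 10.8 to 30.0 in KO libraries and 11.8 to 27.2 in WT libraries, and megakaryocyte and erythroid markers, nearly all of it Pf4, to 1766 to 3455 in KO libraries and 1285 to 2671 in WT libraries. The 5 B cell markers summed to 4963 to 5827 in KO libraries and 6192 to 6718 in WT libraries without overlap, nearly all of it Ighm. Ighm had a log2 fold change of -0.25 (limma unadjusted p = 0.035) and did not pass the test, while Cd79a was at 2.29 or less. The part of these other markers in the values below was not tested. KO replicate 3 and WT replicate 3 stood apart from the other libraries in a principal component analysis of all tested genes. For the genes described library by library, log2 fold changes are therefore also given without 1 or both of them.

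No gene of the actin and myosin machinery passed the test in either direction. By limma with Benjamini-Hochberg adjustment over the 13527 genes, 0 of 48 were higher and 0 of 48 lower in KO at the adjusted threshold of 0.05. The background was 0.0% of tested genes called higher and 0.00739% called lower or called in either direction, since Sirpa was the single call. At an unadjusted p under 0.05 the count was also 0 of 48, where 1.52% of tested genes had such a value, and edgeR and DESeq2 each called 0 of 48, again with 0 at an unadjusted p under 0.05. The smallest unadjusted p of the 48 was 0.127, that of Evl. With array weights, which let each library count by its estimated quality, 6 of the 48 and 3498 of all genes were called, but KO replicate 1 and WT replicate 1 then carried weights of 6.61 and 7.10 against 0.26 to 0.54 for the rest.

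The intervals give, for each gene by itself, the range of fold changes that the scatter among these libraries allowed. They are not adjusted for the number of genes. Every one of the 48 had a 95% interval within 1.5-fold of no difference, whereas 69.1% of all tested genes did. For 17 of the 48 the interval lay within 1.25-fold, against 19.0% of all tested genes. The filter admitted genes at 10 normalized counts in 3 libraries, whereas the lowest mean of the 48 was 594. Intervals of genes at like levels were not compared, so these shares do not set the 48 apart from such genes. The log2 fold change, KO minus WT, was above 0 in 20 of the 48 and below 0 in 28, and below 0 in 51.8% of all tested genes. Its median was -0.03 over the 48, from -0.21 for Brk1 to 0.20 for Myh9, and -0.01 over all tested genes. The median of the 48 took the other sign, 0.02, when KO replicate 3 was left out, and was -0.05 to -0.02 when any other single library was. The largest increase that an interval allowed was 1.44-fold, for Myh9, and the largest decrease was to 0.683 of the WT level, for Brk1. Fold changes are on the scale of log2 of the normalized count plus 1, and for genes at these levels the added 1 weighs little.

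**Figure D1:**
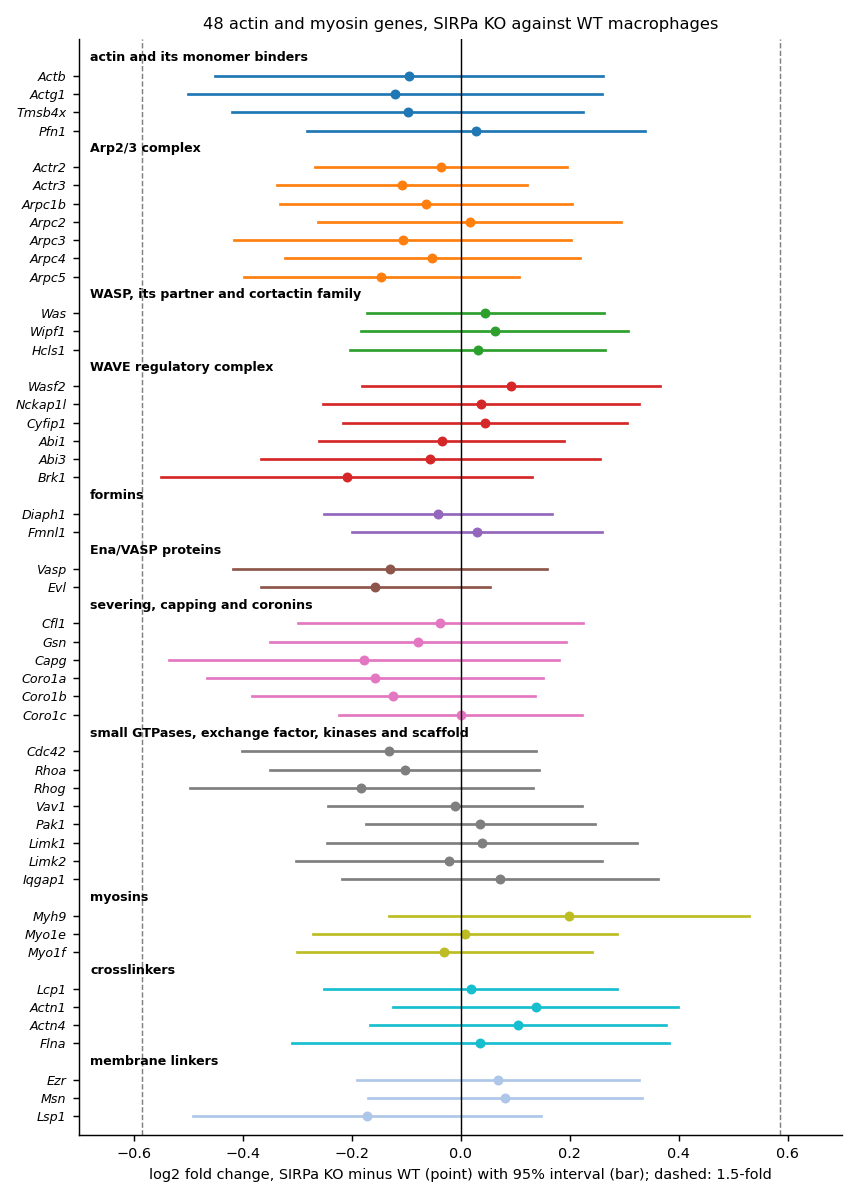
Log2 fold change of the 48 genes, SIRPa KO minus WT (points), with its 95% interval (bars, limma, n = 3 libraries per group), grouped by role. Every bar crosses 0, and every bar lies between the dashed lines that mark 1.5-fold in each direction.

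In 3 of the 48 genes the KO and WT libraries did not overlap, and in all 3 the KO libraries were lower. These were Actr3, Diaph1 and Evl. Among all tested genes 4.66% had groups that did not overlap, 2.71% with KO lower and 1.96% with KO higher. The 48 genes together took 3.90%, 3.93% and 3.55% of normalized counts in KO libraries 1, 2 and 3, and 3.90%, 3.80% and 3.77% in WT libraries. The lowest share was thus in KO replicate 3.

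Actin itself and the proteins that bind its monomers took 1.09% to 1.31% of normalized counts in KO libraries and 1.18% to 1.35% in WT libraries. Actb, which encodes beta-actin and lies on chromosome 5 of GRCm38 from 142903115 to 142906754, had 252039, 263128 and 193459 normalized counts in KO libraries, against 271637, 244327 and 235469 in WT libraries. Actg1, for gamma-actin, on chromosome 11 from 120345690 to 120348542, had 17709, 16575 and 11324 in KO libraries, against 17065, 18047 and 13867 in WT libraries. Tmsb4x, for thymosin beta 4, which holds actin monomers in reserve, had 148166, 149814 and 138548 in KO libraries, against 162751, 132026 and 175390 in WT libraries. In both actin genes replicate 3 of each group was that group's lowest library, and the groups overlapped in all 3 genes. The log2 fold changes were -0.09 (SE 0.16) for Actb, -0.12 (SE 0.17) for Actg1 and -0.10 (SE 0.15) for Tmsb4x. Without KO replicate 3 that of Actb was 0.04 and that of Actg1 0.08, and without WT replicate 3 they were -0.14 and -0.23. That of Tmsb4x was -0.01 without WT replicate 3 and -0.22 without WT replicate 2. Without replicate 3 of both groups the values were -0.0005 for Actb, -0.03 for Actg1 and 0.02 for Tmsb4x. Pfn1, for profilin, which feeds monomers to growing ends, averaged 41865 ± 3633 in KO and 41333 ± 6510 in WT (SD, n = 3 each).

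Of the 7 Arp2/3 subunit genes, 6 lay below the WT mean and 1 above, with a median log2 fold change of -0.06. Actr3, for the Arp3 subunit, which together with Arp2 starts the new branch, lies on chromosome 1 from 125392905 to 125435727. It had 21819, 21849 and 20356 normalized counts in KO libraries, against 22566, 22062 and 24394 in WT libraries. All 3 KO libraries were below all 3 WT libraries, but the highest KO library and the lowest WT library, both replicate 2, lay closer together than the WT SD of 1227. The log2 fold change was -0.11 (SE 0.10, limma unadjusted p = 0.320), and -0.03 without replicate 3 of both groups. Arpc5, for a small subunit of the complex, had 21673, 21838 and 18839 in KO libraries, against 22792, 21274 and 24932 in WT libraries. Its log2 fold change of -0.15, the lowest of the complex, was -0.02 without replicate 3 of both groups. Arpc2, part of the core that grips the mother filament, had the highest level for its length, with 52570, 49490 and 57608 in KO libraries, against 57541, 46823 and 53809 in WT libraries. Its groups overlapped fully, and its log2 fold change was 0.02, or -0.04 without KO replicate 3. Actr2, Arpc1b, Arpc3 and Arpc4 lay between -0.11 and -0.04. In KO replicate 3 the median deviation of the subunits from their means over the 6 libraries was -0.21 on the log2 scale. Without replicate 3 of both groups the median of the complex was -0.01.

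WASP and its relatives activate the Arp2/3 complex below the cup. Hcls1, a cortactin relative of blood cells that steadies branches, had 16016, 15598 and 17186 normalized counts in KO libraries, against 17229, 14932 and 15654 in WT libraries. Wipf1, for the WIP protein that keeps WASP stable, had 14798, 14091 and 16276 in KO libraries, against 14781, 15404 and 13099 in WT libraries. Was averaged 5745 ± 337 in KO and 5564 ± 180.2 in WT (SD, n = 3 each). All 3 genes had means above WT, at log2 fold changes of 0.03 to 0.06, and all had overlapping groups. Without replicate 3 of both groups the values were -0.01 for Was, -0.06 for Wipf1 and -0.02 for Hcls1.

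The WAVE complex, which drives branched actin at the leading edge downstream of Rac, had 3 genes above and 3 below the WT mean and a median log2 fold change of 0.00. Nckap1l, for the HEM1 subunit of blood cells, had 31009, 31050.2 and 27239 normalized counts in KO libraries, against 29185, 33388 and 24901 in WT libraries. Its log2 fold change of 0.04 was -0.07 without WT replicate 3. Brk1, for the smallest subunit, had 4923, 5521 and 3709 in KO libraries, against 5384, 4758 and 6082 in WT libraries. Brk1 had the lowest fold change of all 48 genes, -0.21 (SE 0.15, 95% interval -0.55 to 0.13). KO replicate 3 was the lowest and WT replicate 3 the highest of the 6 libraries, and the value was 0.04 without replicate 3 of both groups. Wasf2, for WAVE2 itself, averaged 13170 ± 208 in KO and 12445 ± 1885 in WT, and Cyfip1, for the Rac-binding subunit, 17571 ± 948 in KO and 17106 ± 2027 in WT (SD, n = 3 each). Abi1 and Abi3, the adaptor subunits, were at -0.04 and -0.06. Abi3 averaged 1419 ± 265 in KO and 1460 ± 78.2 in WT (SD, n = 3 each).

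Formins move with the growing end of unbranched filaments. Diaph1, for the formin mDia1 that acts under RhoA, had 11307, 11165 and 11341 normalized counts in KO libraries, against 11448, 11853 and 11518 in WT libraries. All 3 KO libraries lay below the WT libraries, yet the log2 fold change was -0.04 (SE 0.09, limma unadjusted p = 0.664). Without replicate 3 of both groups the value was -0.05. Diaph1 was also the steadiest of the 48 genes, with a coefficient of variation of 2.07% over the 6 libraries. Fmnl1, a formin of blood cells, had 18069, 19553 and 18699 in KO libraries, against 18779, 19317 and 17123 in WT libraries, and its groups overlapped, with a log2 fold change of 0.03, or -0.02 without replicate 3 of both groups.

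The Ena/VASP proteins protect growing ends from capping. Evl, which lies on chromosome 12 from 108554720 to 108688516, had 4344, 4367 and 4486 normalized counts in KO libraries, against 4949, 5053 and 4717 in WT libraries. The KO mean was 4399 ± 76.3 and the WT mean 4906 ± 172 (SD, n = 3 each), and the highest KO library was below the lowest WT library. Its log2 fold change was -0.16 (SE 0.09, 95% interval -0.37 to 0.05), with an unadjusted p of 0.127 and an adjusted p of 0.9998 by limma. It kept a value from -0.18 to -0.14 whichever single library was left out, and was -0.20 without replicate 3 of both groups and -0.11 with the trend of length removed. Vasp had 4660.3, 4955 and 3547 in KO libraries, against 4778, 4758 and 4727 in WT libraries. Its log2 fold change of -0.13 was 0.02 without KO replicate 3.

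**Figure D2:**
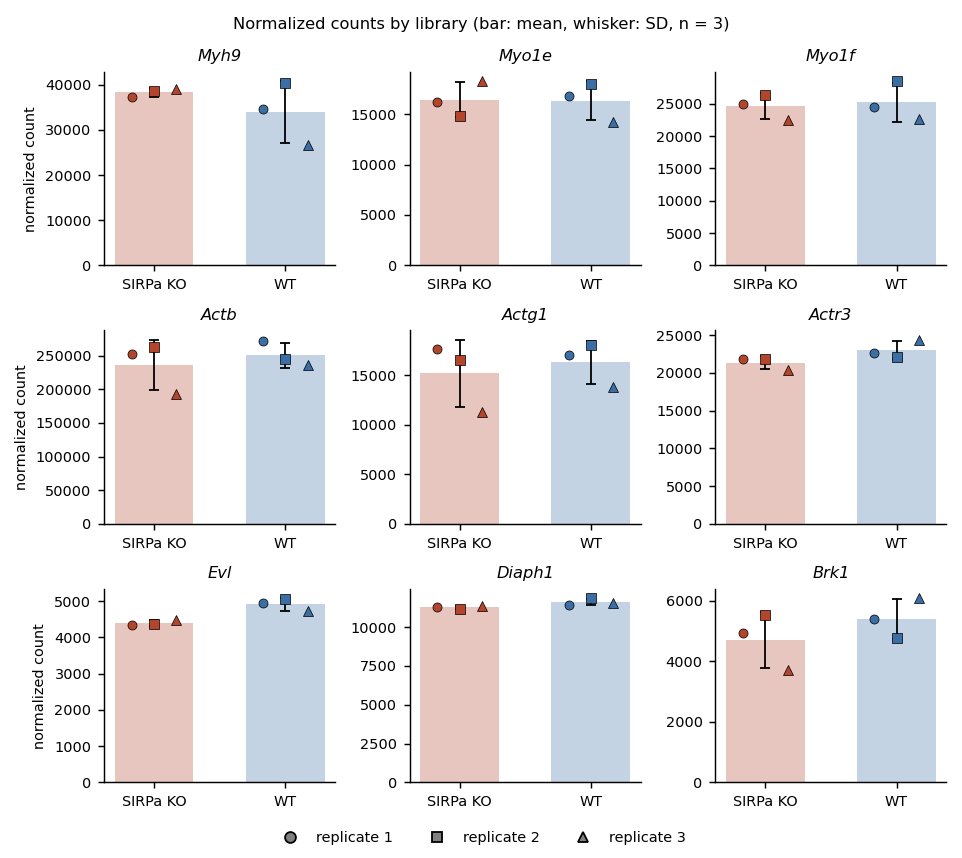
Normalized counts of 9 genes in each library (symbols mark the replicate number), with the mean (bar) and SD (whisker, n = 3) of SIRPa KO and of WT. Evl, Actr3 and Diaph1 have KO libraries below all WT libraries, while the KO libraries of Myh9 lie inside the span of 26672 to 40421 in WT.

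Proteins that sever, cap or recycle filaments had log2 fold changes at or below 0 in all 6 genes, with a median of -0.10. Cfl1, for cofilin, which severs old filaments, had 36783, 38448 and 32419 normalized counts in KO libraries, against 39688, 34321 and 36375 in WT libraries. Coro1a, a coronin of blood cells, had 11006, 12973 and 8888 in KO libraries, against 11773, 11494 and 12996 in WT libraries. The groups overlapped in both, and KO replicate 3 was the lowest of the 6 libraries in both. The log2 fold changes were -0.04 for Cfl1 and -0.16 for Coro1a, and without KO replicate 3 they were 0.03 and -0.01. Capg, a capping protein abundant in macrophages, was at -0.18, Coro1b at -0.12, Gsn, for gelsolin, at -0.08 and Coro1c at 0.00 on the same scale. Without KO replicate 3 that of Capg was 0.02, of Coro1b -0.02 and of Gsn 0.03. Without replicate 3 of both groups the median of the 6 genes was 0.02, so its sign rested on those libraries.

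Small GTPases and the proteins around them set where filaments grow. Cdc42, which switches on WASP, had 38712, 38351 and 32085 normalized counts in KO libraries, against 40032, 36747 and 42579 in WT libraries. Rhog, a GTPase that acts upstream of Rac in engulfment, had 9030.3, 9829.7 and 6729 in KO libraries, against 10311, 9067 and 9335 in WT libraries. Both were lowest in KO replicate 3, and their log2 fold changes were -0.13 for Cdc42 and -0.18 for Rhog. Without KO replicate 3 they were -0.04 for Cdc42 and -0.02 for Rhog. Rhoa, which drives formins and contraction, was at -0.10, and Vav1, an exchange factor of blood cells, at -0.01. Among the kinases, Pak1, which acts under Rac and Cdc42, was at 0.04, and Limk1 and Limk2, which switch cofilin off, were at 0.04 and -0.02. Limk1 averaged 971 ± 118 in KO and 942 ± 68.0 in WT, and Limk2 589 ± 41.8 in KO and 598 ± 50.5 in WT (SD, n = 3 each). Iqgap1, a scaffold for Cdc42 and Rac, averaged 49988 ± 881 in KO and 47908 ± 7321 in WT (SD, n = 3 each), and its log2 fold change of 0.07 was -0.03 without WT replicate 3. Of the 8 genes, 3 lay above and 5 below the WT mean.

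Myh9, the myosin IIA heavy chain, had the highest fold change of the 48 genes, and it did not pass the test. The gene lies on chromosome 15 from 77760587 to 77842175 on the minus strand. Its normalized count was 37279, 38715 and 39143 in KO libraries, against 34662, 40421 and 26672 in WT libraries. The 3 KO libraries stood close together, while the WT libraries held both the highest and the lowest value of the 6. The KO mean was 38379 ± 977 and the WT mean 33918 ± 6905 (SD, n = 3 each). The log2 fold change was 0.20 (SE 0.15, 95% interval -0.13 to 0.53), with an unadjusted p of 0.210 and an adjusted p of 0.9998 by limma. It was 0.04 without WT replicate 3, 0.02 without replicate 3 of both groups, 0.34 without WT replicate 2 and 0.09 with the trend of transcript length removed. In the authors' deposited table, Myh9 has a log2 fold change of 0.18.

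The class I myosins link the cup's actin to its membrane. Myo1f had 24994, 26403 and 22503 normalized counts in KO libraries, against 24513, 28481 and 22638 in WT libraries. Myo1e averaged 16427 ± 1740 in KO and 16353 ± 1923 in WT (SD, n = 3 each). Their log2 fold changes were -0.03 and 0.01, and the groups overlapped in both. Without replicate 3 of both groups the value of Myo1e was -0.17 and that of Myo1f -0.04.

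The partners and controllers of myosin II were followed in a list of 18 genes, of which 15 were tested. By limma 0 of the 15 passed the test, 10 lay above and 5 below the WT mean, and the median log2 fold change was 0.10. Myl6, an essential light chain, had 14189, 14771 and 14139 normalized counts in KO libraries, against 16907, 13569 and 19562 in WT libraries (log2 fold change -0.20, SE 0.13, limma unadjusted p = 0.168). Cdc42bpa, for the kinase MRCK alpha, was at 0.26 (SE 0.19). The other non-muscle heavy chain, Myh10, averaged 14.7 ± 4.64 in KO and 13.3 ± 5.97 in WT (SD, n = 3 each), and Myh14 was at 0 in all 6 libraries.

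All 4 crosslinker genes had means above WT with all 6 libraries, at a median log2 fold change of 0.07, but 2 of the 4 did not without WT replicate 3. Without replicate 3 of both groups the median was 0.05. Lcp1, for L-plastin, which bundles filaments in blood cells, had 110398, 102995 and 105601 normalized counts in KO libraries, against 110357, 106664 and 98273 in WT libraries. Actn1, for alpha-actinin 1, had 10538, 9748 and 9343 in KO libraries, against 9565, 9738 and 7742 in WT libraries. WT replicate 3 was the lowest of the 6 libraries in both, and in Actn4 and Flna as well. The log2 fold changes were 0.02 for Lcp1, 0.14 (SE 0.12) for Actn1, 0.10 for Actn4, for alpha-actinin 4, and 0.04 for Flna, for filamin A. Without WT replicate 3 they were -0.03 for Lcp1, 0.03 for Actn1, 0.01 for Actn4 and -0.07 for Flna. Without replicate 3 of both groups they were -0.02 for Lcp1, 0.07 for Actn1, 0.07 for Actn4 and 0.04 for Flna. Flna varied most of the 4, at 43977 ± 5484 in KO and 43170.0 ± 8338 in WT (SD, n = 3 each).

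Of the genes that tie actin to the membrane, Msn, for moesin, had 55551, 52782 and 56862 normalized counts in KO libraries, against 54473, 53683 and 48165 in WT libraries. Lsp1, a leukocyte protein that binds actin filaments, had 12916, 13939 and 14600 in KO libraries, against 16798, 12370 and 18096 in WT libraries. The groups overlapped in both, with log2 fold changes of 0.08 (SE 0.11) for Msn and -0.17 (SE 0.14) for Lsp1. Without WT replicate 3 they were 0.03 for Msn and -0.06 for Lsp1, and without WT replicate 2 that of Lsp1 was -0.34. Ezr, for ezrin, was at 0.07, with 2965 ± 355 in KO and 2820.0 ± 194 in WT (SD, n = 3 each).

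**Figure D3:**
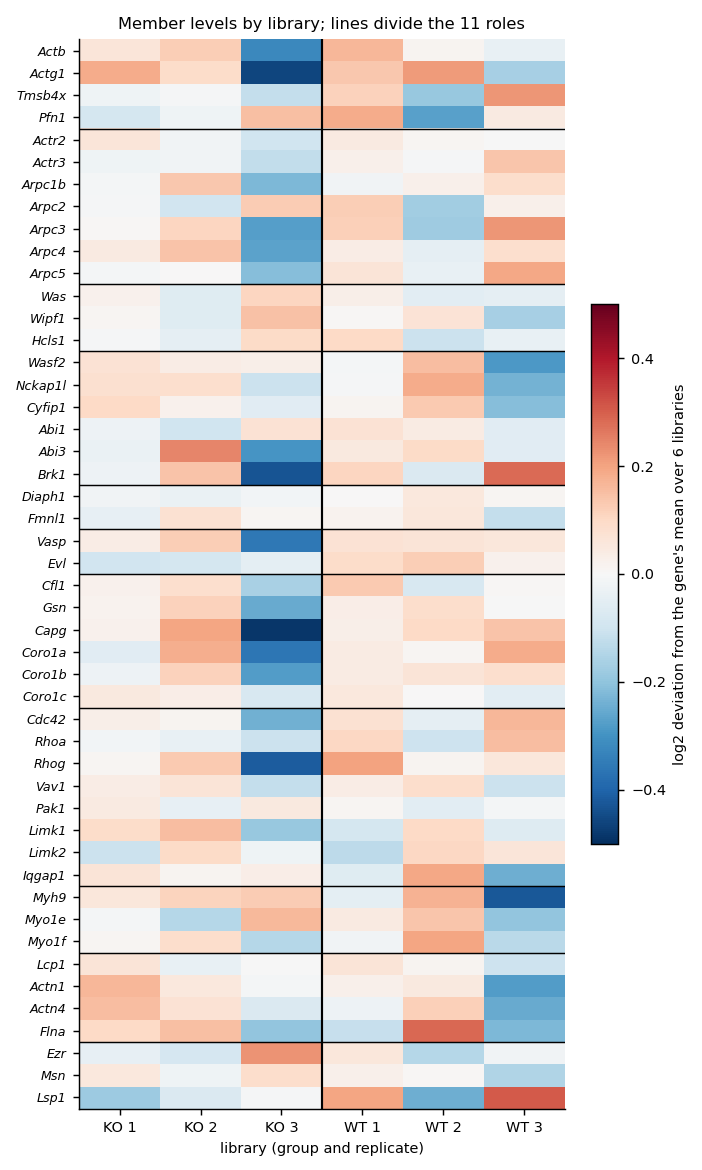
Log2 deviation of each gene from its mean over the 6 libraries (colour scale), with genes in rows by role and SIRPa KO libraries left of WT libraries. KO 3 is blue through the severing and capping group and most of the Arp2/3 complex, and WT 3 is blue through the myosins and crosslinkers, where its median deviations are -0.20 and -0.24.

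The rest of the machinery was counted over 136 further genes in 8 lists, 135 of which had a row and 118 of which were tested. By limma 0 of the 118 passed the test, 62 lay above and 56 below the WT mean, and the median log2 fold change was 0.01. An unadjusted p under 0.05 was seen in 3 of the 118, against 1.52% of all tested genes. They were Actr3b, a paralog of Actr3, at -0.69 with 33.8, 21.8 and 31.3 normalized counts in KO libraries against 58.7, 37.9 and 45.5 in WT libraries, the formin gene Fmnl2 at 0.36, and Ssh2, for a phosphatase that activates cofilin, at 0.29. Groups did not overlap in 8 of the 118, against 4.66% of all tested genes. The genes of smallest p in the other lists were Cttn (-0.44) beside Actr3b among Arp2/3 genes, Wasl (0.25) and Wasf1 (-0.41) among WASP and WAVE genes, Fhod3 (-0.45) beside Fmnl2 among formins, Pfn2 (-0.52) beside Ssh2 among turnover genes, Myo9a (0.24) and Myo5c (-0.65) among unconventional myosins, Sptbn1 (0.13) and Rdx (0.14) among crosslinkers and linkers, and Rhof (-0.32) and Rhob (-0.39) among small GTPases and kinases. Several of these, among them Cttn, Pfn2 and Myo5c, had fewer than 30 normalized counts in every library. Rac1 averaged 24973 ± 1849 in KO and 24929 ± 1631 in WT (SD, n = 3 each), and Rac2 7023 ± 1058 in KO and 7695 ± 348 in WT.

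To compare levels between genes, normalized counts were divided by the summed length of each gene's exons in kilobases. On that scale Tmsb4x was first of the 48, at 106134 ± 4438 normalized counts per kilobase in KO and 114312 ± 16267 in WT (SD, n = 3 each), and 9th among all genes. Actb followed at 88170.4 ± 13974 in KO and 93497 ± 7037 in WT, 12th among all genes. Arpc2 was at rank 3 with 26179 ± 2016 in KO and 25934 ± 2676 in WT, and Pfn1 at rank 4 with 17407 ± 1511 in KO and 17186 ± 2707 in WT. Cdc42 and Cfl1 came next, at 12267 ± 1256 and 12617 ± 1095 in KO and 13414 ± 986 and 12938 ± 952 in WT, and their order differed between the groups by less than their spread. Myh9 stood 31st, at 2969 ± 75.5 in KO and 2624 ± 534 in WT, and Myo1f 18th at 4956 ± 397 in KO and 5073 ± 600.3 in WT. Abi3, Limk1 and Limk2 were the last 3, Limk2 at 96.6 ± 6.85 in KO and 98.1 ± 8.28 in WT. The order depended on the length used, since by the length of the principal transcript Rhoa moved to 12th place from 25th and Arpc3 to 8th from 16th.

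Many of these genes have a close relative that could stand in for them, so the share of each family's length-scaled level held by the named gene was computed in 29 families. The named gene held over 50% in 27 families and over 90% in 13. Myh9 held 99.95% ± 0.01 of its family in KO and 99.95% ± 0.01 in WT, Actb 93.9% ± 0.53 of Actb plus Actg1 in KO and 93.8% ± 0.69 in WT, and Arpc1b 90.5% ± 0.15 in KO and 90.3% ± 0.33 in WT (SD, n = 3 each). Other families were shared: Myo1f held 50.1% ± 2.76 beside Myo1e in KO and 51.0% ± 1.004 in WT, and Coro1a 48.6% ± 2.34 in KO and 50.1% ± 1.74 in WT. Abi3 held 10.4% ± 2.27 in KO and 10.4% ± 0.24 in WT, since Abi1 made up 85.4% of that family. Groups did not overlap in 3 families, those of Actr3, Hcls1 and Pfn1, where the exact two-sided permutation test over samples gave p = 0.1, the smallest that 3 against 3 libraries allow, and 0.906 after adjustment over the 29 families. That count of 3 was 9 without replicate 2 of either group and 5 without KO replicate 3, as fewer libraries were then compared. In those 3 the named gene held over 99% in every library, as with Actr3 at 99.7% ± 0.06 in KO and 99.6% ± 0.09 in WT. Reads of near-identical relatives and processed copies, which beta- and gamma-actin, cofilin, profilin and thymosin genes are known to have, may have been divided between them in counting, and values of these genes are uncertain to that extent.

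**Figure D4:**
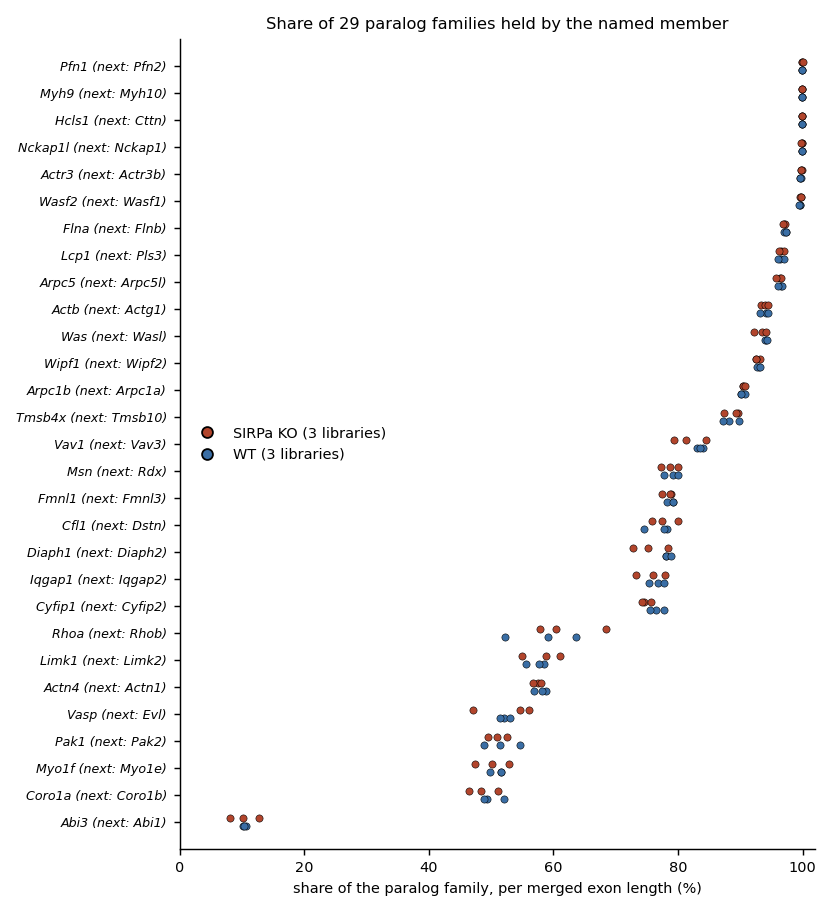
Share of each paralog family's level per exon length that was held by the named gene, in the 3 SIRPa KO libraries (upper, red) and the 3 WT libraries (lower, blue). Myh9 and Nckap1l hold over 99% in every library, while Myo1f, Coro1a, Pak1 and Vasp stand near 50% and Abi3 near 10%.

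The scatter of these genes between replicates went with transcript length, most steeply in 2 WT libraries. The deviation of each gene from its group mean was set against the log2 length of its principal transcript in each library, as a description over genes that share a library, with no test. Over the 48 genes Pearson's r was -0.07, -0.31 and 0.26 in KO libraries 1, 2 and 3, and -0.35, 0.83 and -0.75 in WT libraries 1, 2 and 3. Among the 7269 tested genes with a mean normalized count, not scaled by length, at or above the lowest of the 48, r was 0.03, -0.32 and 0.24 in KO libraries and -0.16, 0.61 and -0.49 in WT libraries. WT replicate 2 thus ran high and WT replicate 3 low in long transcripts, and Myh9, with a transcript of 7433 bases, deviated from the WT mean by 0.27 and -0.33 in them on the log2 scale. Against the percentage of G and C bases in the transcript, r over the 48 genes was -0.14, 0.39 and -0.23 in KO libraries. In WT libraries it was -0.12, 0.18 and -0.14. Over the 7269 genes it was 0.04, 0.55 and -0.45 in KO libraries and 0.03, 0.11 and -0.12 in WT libraries. In KO replicates 2 and 3 these last values were larger in size than those with length. Whether base content acts on the fold changes was not tested.

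**Figure D5:**
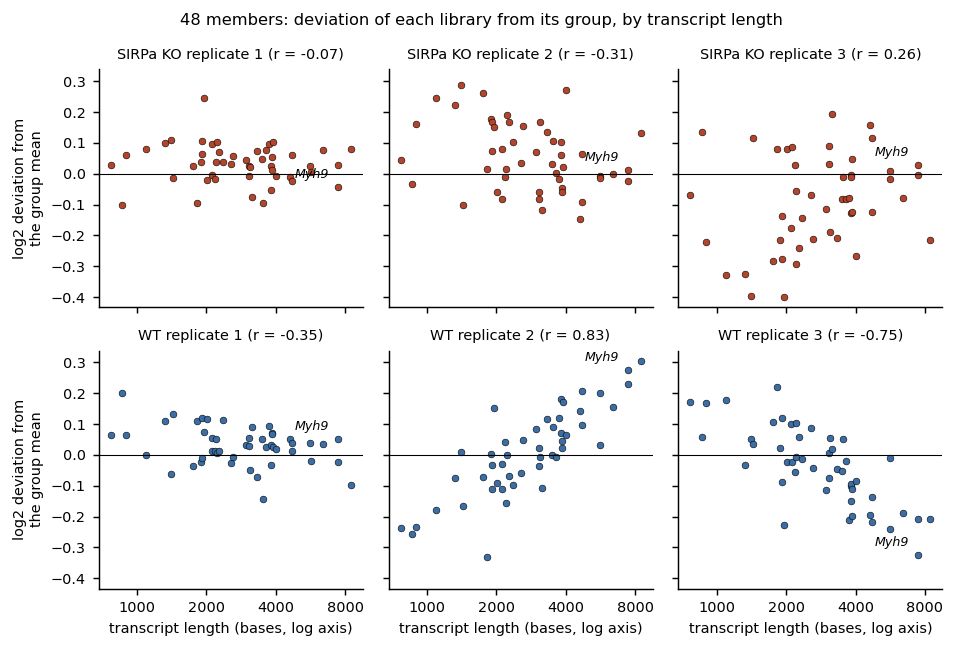
Log2 deviation of each of the 48 genes from its group mean in each library, SIRPa KO above and WT below, against transcript length in bases (log axis), with Pearson's r per panel. WT replicates 2 and 3 slope in opposite directions (r = 0.83 and -0.75), and the KO libraries slope less.

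The fold changes of the 48 genes followed length as well. The correlation of the log2 fold change, KO minus WT, with log2 length was 0.66 (Spearman's coefficient 0.70) over the 48 genes and 0.09 (Spearman's 0.29) over 13514 tested genes, as a description over genes that share the same 6 libraries. The 13514 include genes of lower level than any of the 48. Fold changes of genes at like levels were not set against length, so these values do not set the 48 apart. The 24 genes with transcripts shorter than 3014 bases had a median log2 fold change of -0.11, with 20 of them below WT, and the 24 longer ones a median of 0.04, with 8 below WT. Over the 48 genes r was 0.14 once the trend of length was removed from each library and -0.10 without replicate 3 of both groups. In KO replicate 3, 34 of the 48 genes lay below the KO mean, and the shorter 24 had a median deviation of -0.16 there, against -0.01 for the longer 24. Among the roles, the median of the severing, capping and coronin genes was -0.06 with the trend removed and that of the crosslinkers 0.05. Whether length acts on these differences between roles was not tested.

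How steady these transcripts were can be read from the coefficient of variation over all 6 libraries, KO and WT together. Its median over the 48 genes was 9.22%, from 2.07% for Diaph1 to 16.7% for Actg1, and it was 10.1% over the 7274 tested genes at or above the lowest mean normalized count of the 48. The sign of the fold change held under all 19 alternative settings for 13 of the 48 genes. Myh9, Pak1, Actn1, Actn4 and Msn stayed above WT, and Actr3, Arpc5, Diaph1, Evl, Coro1b, Rhoa, Rhog and Lsp1 stayed below. For 30 of the 48 the sign turned when 1 library was left out. Among the 19 settings, no filter, a minimum of 50, an untrended fit and the replicate block left the fold changes of the 48 as they were. Those settings could not turn a sign.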

How the data were processed

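RNA-seq values of 3 SIRPa KO and 3 WT macrophage samples came from 1 deposited table with 54232 rows, in which every library column had a sample. The submitters' processing notes name DESeq2 1.22.2, featureCounts 1.6.0, STAR 2.5.1b and CASAVA 1.4, with the build GRCm38. The design text in the labels names TopHat 2.0.10 and FastQC 0.10.1, so which aligner made the table is unknown. The sources used here give neither annotation release nor strand setting, and overlapping or antisense genes may share reads. The deposited library values are a signal, read counts that the authors divided by a size factor, and all positive values were whole reads within 0.001. The authors' table also holds, per the file headers, a log2 fold change, a Wald statistic (a score) and a p-value. Rows with no gene name were 67, with 0.0028% of reads.

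Tests used limma 3.58.1 (R 4.3.3, intensity trend) on log2(value + 1), over genes with at least 10 normalized counts in at least 3 libraries. They were two-sided, and p was adjusted by Benjamini-Hochberg over 13527 genes. The count tests edgeR 4.0.16 and DESeq2 1.42.0 were run on the recovered reads. Scripts were tested on simulated data. Lengths and positions came from GENCODE M21 on GRCm38. No replicate pair agreed within sampling noise (smallest chi-square 13.1 per degree of freedom). Family shares were compared with exact permutation tests in scipy 1.17.1.

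The 48 genes and all lists were chosen with earlier results of these data known. Values by library are given for Myh9, Actb and Actg1 and, in each role, for the gene of highest length-scaled level, that of smallest p and those whose groups do not overlap. Of each machinery list, up to 2 genes of smallest p are named. Rac1, Rac2, Myh10, Myh14 and the markers named were added after their values were seen. Alternatives were pseudocounts of 0.1 and 10, no filter, a minimum of 50, TMM, median centring, an untrended fit, array weights, a block on replicate number, other tools, a threshold of 0.1 and each library left out. Added after seeing the data were fits with the length trend removed (lowess span 0.3) and without replicate 3 of both groups, and shares by transcript length. The part of depth in the scatter between replicates was not tested.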

Additional observations from a re-analysis of the deposited data

How the results depend on the processing

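None of the 48 genes was called in any alternative but array weights, which called 6 (Actn4 and Flna higher, Evl, Lsp1, Pfn1 and Rhog lower in KO) and 3498 genes in all. There Pfn1 had a log2 fold change of -0.23 against 0.03, and the weights, 6.61 for KO replicate 1 and 7.10 for WT replicate 1, did not converge. The median of the 48 was 0.0174 without KO replicate 3 and spanned -0.0468 to 0.0174 over the fits that each left out a library. The cause was not tested. Without WT replicate 2, 2 of the 48 and 673 of 13527 tested genes had an unadjusted limma p under 0.05. With all 6 libraries these counts were 0 and 205. The count of families without overlap, 3, was 4 to 9 with a library left out. It was 9 without replicate 2 of either group and 5 when KO replicate 3 was dropped, where fewer libraries are compared. With the replicate block, 0 of the 48 and 1 gene were called. Same-numbered libraries correlated at 0.01, 0.31 and 0.13 in their deviations, and the numbers were not taken as pairs. KO replicates 1 and 2 deviated most like the WT library of their number, and KO replicate 3 most like WT replicate 1. In turn WT replicates 2 and 3 deviated most like the KO library of their number, and WT replicate 1 most like KO replicate 3. The labels do not say whether a number marks a shared batch. Sirpa was called throughout, at -5.76 to -5.62. Signs turned in 35 of the 48 under at least 1 of 19 alternatives. Precision rests on 3 libraries per group, and whether depth acts on it was not tested.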
